A study of Mus musculus with 17 samples.

Results

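Transcripts that belong to T cells, natural killer (NK) cells, monocytes and macrophages, neutrophils, basophils and red cell precursors were read out in RNA libraries labelled as splenic B cells. The set held 35 marker genes of these lineages, all of which were found by symbol among the 55487 mouse genes of the B cell table. The genes were picked because earlier results of these data had shown them to be higher in the B cell libraries treated with MSA2 than in those of Control. Their B cell values are therefore given as a description, with no test, and only the values in dendritic cells were tested.

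The study sequenced 9 libraries of B cells from mouse spleen and 8 of dendritic cells grown out of bone marrow (BMDC), which present antigen to T cells. Cells were incubated with MSA2 plus IPI-549 (the combination), with MSA2 alone, or without drug (Control), with 3 B cell libraries a group, and with 2, 3 and 3 BMDC libraries in that order. MSA2 is an oral agonist of the innate immune sensor STING, and IPI-549 inhibits the gamma form of PI3 kinase, found mainly in leukocytes. The series text gives KPC mice, which model pancreatic cancer, as the donors of every group, while the genotype label of every library reads WT. The labels give no age, dose, time, sorting step or pooling of animals, and no group received IPI-549 alone.

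Spleen holds B cells, T cells, NK cells, macrophages, granulocytes and, in the mouse, red cell precursors side by side. B cells are usually obtained from it by depleting the other cells with antibodies or by sorting, and what such a step leaves behind adds its own transcripts to the RNA. Lineage markers report this mixture well where their product is made by 1 lineage only, as the CD3 chains are in T cells, and less well where B cells make some of the transcript themselves.

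Totals per library lay between 41090638 and 51429550 counts for B cells, and between 34757983 and 73163252 for BMDC. The MSA2 libraries of B cells have library numbers 8, 11 and 12, after 2, 5 and 6 of the combination and 1, 3 and 4 of Control, so a difference in handling in that order cannot be told apart from MSA2 treatment. All 9 B cell libraries held RNA of both sexes: Xist, made from the inactive X chromosome of females, was at 277 to 514 CPM, and the Y-linked Ddx3y was at 26.9 to 49.3 CPM. In BMDC Ddx3y had 0 counts in 8 of 8 libraries. The labels do not say whether replicates came from separate animals, so p-values measure the spread between these libraries, which may be technical. CPM gives a gene's counts per 1000000 counts of its library, without further scaling.

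Every one of the 35 genes was higher in each MSA2 library than in each combination and each Control library of B cells. Among all 16194 genes that passed the low-count filter, 28.2% had that pattern, and since the genes were chosen on this contrast nothing is read from the comparison. Together they made up 0.00609, 0.00611 and 0.00551% of the counts in the combination, 0.4103, 0.419 and 0.408% with MSA2 and 0.0132, 0.007704 and 0.00779% in Control. The ratio of the MSA2 to the Control mean had a median of 94.8 over the 35 genes and of 1.06 over all genes tested. In bulk RNA, fewer cells of a type and less RNA per cell cannot be told apart.

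**Figure D1:**
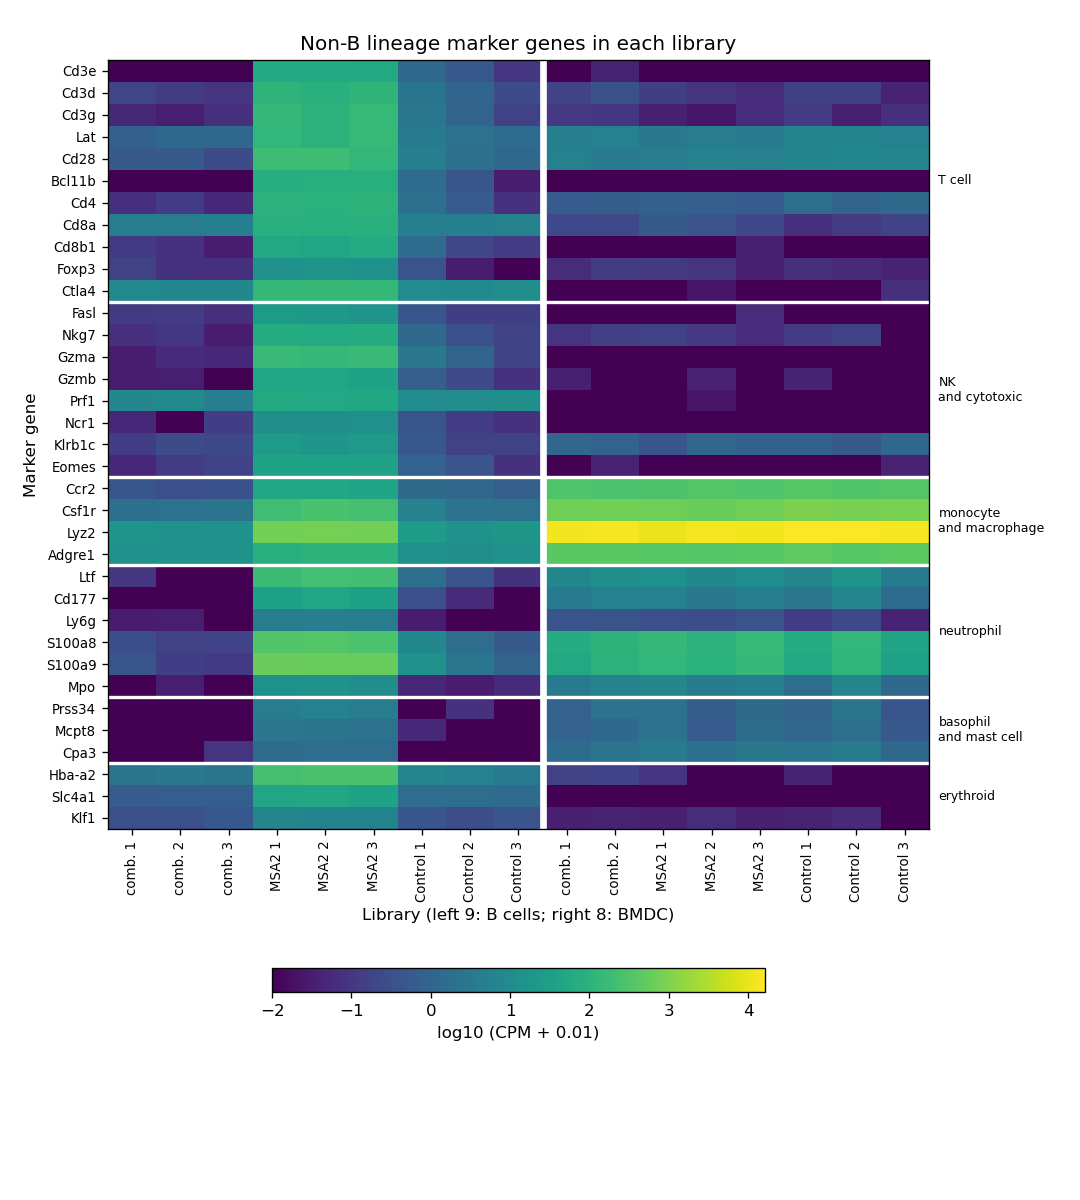
Heat map of log10 (CPM + 0.01) for the 35 marker genes (rows, grouped by lineage) in the 9 B cell libraries and the 8 BMDC libraries (columns; comb. is MSA2 plus IPI-549). The 3 MSA2 columns of B cells are brighter than the combination and Control columns in every row, and the 4 monocyte and macrophage genes are brightest in BMDC.

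Among the T cell genes, those of the receptor complex were near or at 0 in the combination, abundant with MSA2 and sparse in Control. The 11 genes summed to 14.7, 14.5 and 14.4 CPM in the combination, 1108, 986 and 1077 CPM with MSA2 and 34.7, 21.6 and 19.8 CPM in Control. Cd3e, a signalling chain of the T cell receptor complex (chromosome 9, 44998740 to 45009627, GRCm38), had 0, 0 and 0 counts in the combination, 2839, 2497 and 2578 with MSA2 and 65, 23 and 4 in Control. Taking 3 counts per group as the floor, Cd3e was at least 2840.3-fold lower in the combination than with MSA2, and at least 30.02-fold lower than in Control. Cd3g, another chain of the complex, whose gene lies beside Cd3d on the same chromosome, stood at 0.0424, 0.0225 and 0.0624 CPM in the combination, 138, 97.8 and 147 CPM with MSA2 and 2.703, 0.911 and 0.155 CPM in Control. The transcription factor gene Bcl11b, needed for T cell commitment, likewise had 0 counts over the combination, 10086 over the MSA2 libraries and 96 over Control.

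Lat, the adaptor that passes the T cell receptor signal on, was measured at 0.847, 1.24 and 1.17 CPM in the combination, 131, 99.7 and 142 CPM with MSA2 and 3.67, 2.19 and 1.46 CPM in Control. The costimulatory receptor gene Cd28 had 0.572, 0.541 and 0.2498 CPM in the combination, 194, 189 and 127 CPM with MSA2 and 4.55, 1.91 and 1.22 CPM in Control. The groups did not overlap for either gene, with the combination lowest. Ctla4, an inhibitory receptor of activated and regulatory T cells, differed in kind, at 8.79, 8.12 and 8.03 CPM in the combination, 139, 134 and 138 CPM with MSA2 and 9.99, 9.14 and 11.1 CPM in Control. Its mean with MSA2 was 13.6 times that of Control, against 102 times for Cd3g, and the combination and Control values of Ctla4 lay close together. Cd8a, the coreceptor chain that some dendritic cells also make, showed the same kind of floor, at 3.94 to 4.66 CPM in the combination, 80.5 to 89.01 with MSA2 and 4.64 to 5.32 in Control, whereas its partner chain Cd8b1 was at 0.0208 to 0.106, 47.2 to 64.4 and 0.111 to 1.44 CPM in the same order. Cd3d, Cd4, the helper cell coreceptor gene, and Foxp3, the regulator of regulatory T cells, were at 0.0416 to 0.191 CPM, 14.1 to 115 CPM and 0 to 2.62 CPM in the combination, MSA2 and Control. Exons of Foxp3 overlap those of neighbouring genes on both strands, and the strand of the libraries is not given in the sources used here, so its counts are uncertain.

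The 8 NK and cytotoxic genes, which cytotoxic T cells share in part, summed to 7.82, 9.49 and 5.12 CPM in the combination, 436, 391 and 402 CPM with MSA2 and 17.3, 12.9 and 13.3 CPM in Control. Gzma, a granule protease, was at 0.0212, 0.0451 and 0.0416 CPM in the combination, 159, 135 and 153 CPM with MSA2 and 2.94, 0.955 and 0.177 CPM in Control. Gzmb, the granzyme that cleaves caspases in target cells, had 0.0212, 0.0225 and 0 CPM in the combination, 45.2, 44.1 and 38.8 CPM with MSA2 and 0.739, 0.2604 and 0.0665 CPM in Control. In both genes each combination library lay below each Control library, and the MSA2 libraries stood above 38 CPM. Nkg7, a granule membrane protein of cytotoxic cells, was at 0.0636, 0.0902 and 0.0208 CPM in the combination, 71.7, 64.2 and 70.5 CPM with MSA2 and 1.303, 0.326 and 0.177 CPM in Control. Prf1, the gene of the pore-forming protein perforin, kept a floor, at 7.39, 8.84 and 4.496 CPM in the combination, 59.2, 55.9 and 49.2 CPM with MSA2 and 10.1, 10.5 and 12.4 CPM in Control, so that its MSA2 mean was only 4.97 times its Control mean. The remaining members were the death ligand gene Fasl, the NK receptor genes Ncr1 and Klrb1c and the transcription factor gene Eomes. They ranged from 0 to 0.271 CPM in the combination, from 12.3 to 40.3 CPM with MSA2 and from 0.0665 to 0.875 CPM in Control. Klrb1c belongs to a family of close copies, so reads may be shared within it.

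Start regions of both granzyme genes are shown because a short motif of RUNX factors, TGTGGTT, lies in both and both genes have over 38 CPM in each MSA2 library. Each runs 5′ to 3′ along the gene's strand, from 250 bases before to 50 after the start, after RefSeq on GRCm38.p6, with the motif or its reverse complement in capitals. Gzma lies at chr13:113100932-113101231, minus strand, and Gzmb at chr14:56262285-56262584, minus strand.
Gzma: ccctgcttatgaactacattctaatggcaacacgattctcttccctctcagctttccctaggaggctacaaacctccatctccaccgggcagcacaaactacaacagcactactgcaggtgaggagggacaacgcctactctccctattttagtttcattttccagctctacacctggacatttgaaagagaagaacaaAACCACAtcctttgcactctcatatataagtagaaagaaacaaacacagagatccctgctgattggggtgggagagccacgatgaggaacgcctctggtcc
Gzmb: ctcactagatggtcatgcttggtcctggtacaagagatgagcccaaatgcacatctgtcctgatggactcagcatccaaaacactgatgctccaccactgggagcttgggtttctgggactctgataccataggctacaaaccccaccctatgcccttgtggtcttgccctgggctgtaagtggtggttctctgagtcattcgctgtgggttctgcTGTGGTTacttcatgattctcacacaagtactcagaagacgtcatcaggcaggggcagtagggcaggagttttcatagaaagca
Of the 35 genes, 29 had a promoter entry, with 32 entries in all. TGTGGTT on either strand was in 6 of the 32, or 18.8%, and in 5.27% of all 32851 promoters of that length. The interferon-stimulated response element, searched on both strands, occurred in 2 of 32 (6.25%, Eomes and Gzma) against 3.44% of all promoters. The erythroid and mast cell motif AGATAA was in 7 of 32 (21.9%, against 11.2%) and the C/EBP motif TTGCNNAA in 5 of 32 (15.6%, against 10.8%). AGATAA lay in 0 of 2 erythroid entries and 2 of 3 basophil and mast cell entries, and otherwise in T cell, monocyte and neutrophil genes. A match in these windows is a description of letters, not a binding site.

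Genes of monocytes and macrophages, the phagocytes of the spleen, were abundant with MSA2 and partly present in the other groups. Lyz2, the gene of lysozyme in myeloid cells, had 16.8, 15.2 and 14.2 CPM in the combination, 763, 828 and 755 CPM with MSA2 and 26.4, 14.5 and 19.2 CPM in Control. Csf1r, the receptor for the macrophage growth factor CSF1, was at 1.97, 2.01 and 2.37 CPM in the combination, 199, 266 and 244 CPM with MSA2 and 5.64, 2.26 and 2.04 CPM in Control. The MSA2 means were 39.04 and 71.4 times those of Control. Ccr2, the receptor that draws monocytes from the blood, stood at 0.445, 0.316 and 0.354 CPM in the combination, 50.8, 54.2 and 41.1 CPM with MSA2 and 1.36, 1.09 and 0.754 CPM in Control. Adgre1, which encodes the macrophage protein F4/80, was at 14.98, 15.02 and 14.6 CPM in the combination, 81.8, 104 and 104 CPM with MSA2 and 12.97, 12.4 and 15.7 CPM in Control. Its MSA2 mean was 7.08 times its Control mean, and its combination and Control values overlapped. Within a library the count ratio of Csf1r to Adgre1 was 0.132 to 0.163 in the combination, 2.33 to 2.56 with MSA2 and 0.1301 to 0.435 in Control, so the pair did not keep 1 ratio across groups. Exons of Csf1r overlap Hmgxb3 on the opposite strand.

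Neutrophil genes were nearly absent from the combination. The 6 genes summed to 0.826, 0.338 and 0.271 CPM in the combination, 1164, 1225 and 1134 CPM with MSA2 and 24.9, 4.84 and 1.68 CPM in Control. S100a9 and S100a8 encode the paired calcium-binding proteins that fill neutrophil cytosol. S100a9 was at 0.424, 0.135 and 0.104 CPM in the combination, 606, 586 and 588 CPM with MSA2 and 14.99, 2.78 and 0.998 CPM in Control. S100a8 had 0.297, 0.158 and 0.167 CPM in the combination, 334, 349 and 282 CPM with MSA2 and 7.797, 1.61 and 0.576 CPM in Control. In both genes Control replicate 1 stood above the other Control libraries, and the combination was below all of Control. The count ratio of S100a9 to S100a8 within a library was 0.625 to 1.43 in the combination, where it rests on 5 to 20 counts of either gene, 1.68 to 2.09 with MSA2 and 1.73 to 1.92 in Control. Ltf, the gene of the iron-binding granule protein lactoferrin, had 0.0847, 0 and 0 CPM in the combination, 174, 227 and 215 CPM with MSA2 and 1.75, 0.391 and 0.0665 CPM in Control. Cd177, a surface protein of neutrophils, had 0 counts over the combination, 4695 over the MSA2 libraries and 18 over Control. Ly6g and Mpo, a surface marker and the granule peroxidase, were at 0 to 0.0225 CPM in the combination, 4.199 to 14.7 CPM with MSA2 and 0 to 0.0443 CPM in Control. Per kilobase of exon, S100a9 was the most abundant of all 35 with MSA2, at 1136 CPM per kb, followed by Lyz2 at 594, S100a8 at 464, Hba-a2 at 389.7 and Gzma at 148.

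The promoters of S100a8 and Mpo, an abundant and a scarce neutrophil gene of these libraries, are shown in the same frame with the PU.1 motif GAGGAAGT or its reverse complement in capitals, PU.1 being a myeloid transcription factor that B cells also make. S100a8 lies at chr3:90668821-90669120, plus strand, and Mpo at chr11:87793534-87793833, plus strand.
S100a8: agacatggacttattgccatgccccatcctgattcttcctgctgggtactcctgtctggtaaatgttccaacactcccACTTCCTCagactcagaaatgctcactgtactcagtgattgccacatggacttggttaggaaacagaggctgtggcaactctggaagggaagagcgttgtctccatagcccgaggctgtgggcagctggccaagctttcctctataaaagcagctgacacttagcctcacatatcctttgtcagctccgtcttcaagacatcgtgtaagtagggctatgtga
Mpo: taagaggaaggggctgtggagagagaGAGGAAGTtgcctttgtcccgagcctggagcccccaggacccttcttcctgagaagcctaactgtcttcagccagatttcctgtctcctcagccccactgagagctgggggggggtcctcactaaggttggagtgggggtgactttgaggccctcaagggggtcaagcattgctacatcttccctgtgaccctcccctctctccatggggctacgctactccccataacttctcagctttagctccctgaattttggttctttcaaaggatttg
The motif was in 4 of the 32 promoter entries of these genes (12.5%), all 4 from neutrophil genes (S100a8, Mpo and both entries of Ly6g), and in 3.20% of all promoters.

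Basophil and mast cell genes were scarce everywhere in B cells but present with MSA2. Prss34 and Mcpt8 encode proteases of mouse basophils, and Cpa3 a mast cell carboxypeptidase. Prss34 had 0, 0 and 0 counts in the combination, 189, 221 and 185 with MSA2 and 0, 3 and 0 in Control. Mcpt8 had 0, 0 and 0 counts in the combination, 121, 106 and 97 with MSA2 and 2, 0 and 0 in Control. Cpa3 had 0, 0 and 4 counts in the combination, 70, 66 and 73 with MSA2 and 0, 0 and 0 in Control, at least 76.6-fold higher with MSA2 than in Control by the same floor.

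Of the erythroid genes, Hba-a2, an alpha globin gene, was at 2.48, 3.18 and 2.56 CPM in the combination, 242, 270.3 and 267 CPM with MSA2 and 6.57, 5.403 and 3.68 CPM in Control. Its reads may be shared with the near copy Hba-a1, which had 4.15, 5.12 and 5.703 CPM in the combination, 239, 242 and 246 CPM with MSA2 and 10.2, 6.16 and 5.17 CPM in Control. Slc4a1, the anion exchanger of the red cell membrane, had 0.593, 0.699 and 0.708 CPM in the combination, 45.2, 52.6 and 40.9 CPM with MSA2 and 1.65, 1.69 and 1.44 CPM in Control. Klf1, the transcription factor that switches on adult globin genes, was at 0.318, 0.316 and 0.4995 CPM in the combination, 6.52, 6.33 and 6.303 CPM with MSA2 and 0.447, 0.304 and 0.421 CPM in Control. In Klf1 the combination and Control ranges overlapped, while in Hba-a2 and Slc4a1 each combination library lay below each Control library.

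**Figure D2:**
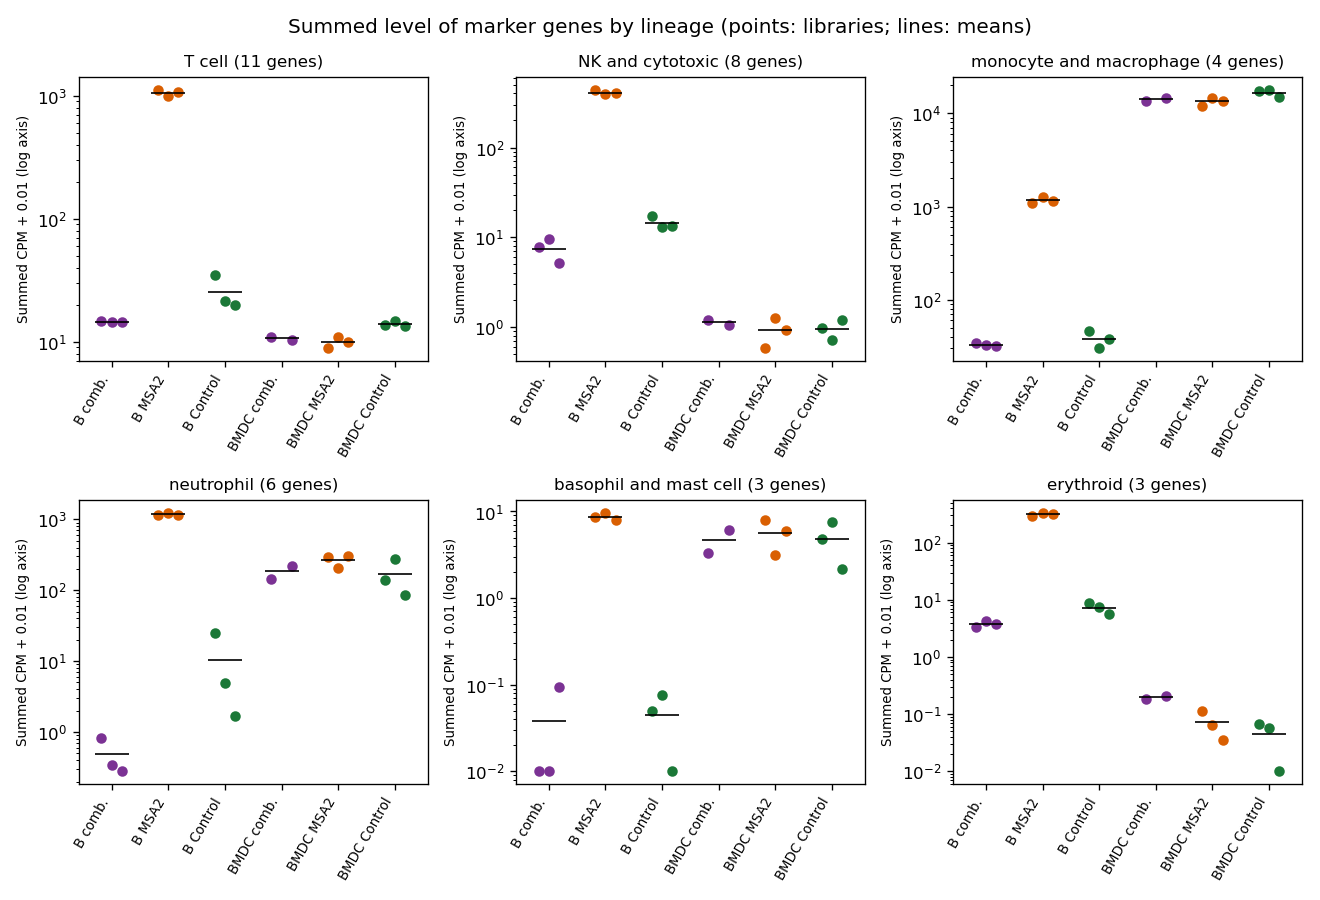
Summed CPM + 0.01 (log axis) of the marker genes of each lineage, with 1 point per library and a line at the group mean, for B cells and BMDC (comb. is MSA2 plus IPI-549). In each panel the B cell MSA2 libraries lie above the other B cell libraries, and 1 of the 3 Control points stands apart at 24.9 CPM in the neutrophil panel.

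For most of the 35 genes the MSA2 libraries lay close together, whereas Control was uneven. The highest MSA2 library was under 1.5 times the lowest in 33 of 35 genes, Cd3g and Cd28 being the exceptions at 1.51 and 1.53. MSA2 replicate 2 was lowest for 7 of 11 T cell genes and highest for 5 of 6 neutrophil and 3 of 4 monocyte genes. In Control, replicate 1 was the highest for 27 of the 35 genes and replicate 3 the lowest for 22, where replicate 1 was highest for 33.4% of all genes tested. Shares over all genes were not computed for the counts of the MSA2 replicates or of Control replicate 3, so those counts have no background. Each combination library lay below each Control library in 18 of 35 genes, 8 of them of the T cell and 5 of the NK list, against 11.7% of all genes, and in 0 of 35 did the combination lie wholly above Control (7.01% of all genes). The choice of genes that are sparse in Control bears on these counts, so they are given as description. Some of the 18 gaps rest on few reads, as for Cd8b1, with 5, 3 and 1 counts in the combination and 74, 9 and 5 in Control.

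With each gene set to 100% at its mean over the MSA2 libraries, the T cell genes stood at a median of 0.185, 0.118 and 0.0804% in the 3 combination libraries and 2.51, 0.818 and 0.193% in Control replicates 1, 2 and 3. The NK genes were at 0.222, 0.211 and 0.369% in the combination and 2.19, 0.661 and 0.392% in Control. Neutrophil genes were at 0.0564, 0.0359 and 0% in the combination and 0.854, 0.177 and 0.1003% in Control. In these 3 lineages Control replicate 1 was the highest and replicate 3 the lowest. Erythroid genes had another order, with 1.28, 1.51 and 1.53% in the combination and 3.58, 3.66 and 3.12% in Control. Monocyte and macrophage genes were at 1.53, 1.399 and 1.41% in the combination and 3.09, 2.04 and 1.999% in Control. Their Control replicates had the same order as for the T cell, NK and neutrophil genes. The combination mean was under 2% of the MSA2 mean in 30 of 35 genes and between 4.9 and 16% in the other 5, which were Adgre1 (15.4%), Prf1 (12.6%), Ctla4 (6.07%), Klf1 (5.92%) and Cd8a (4.995%).

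**Figure D3:**
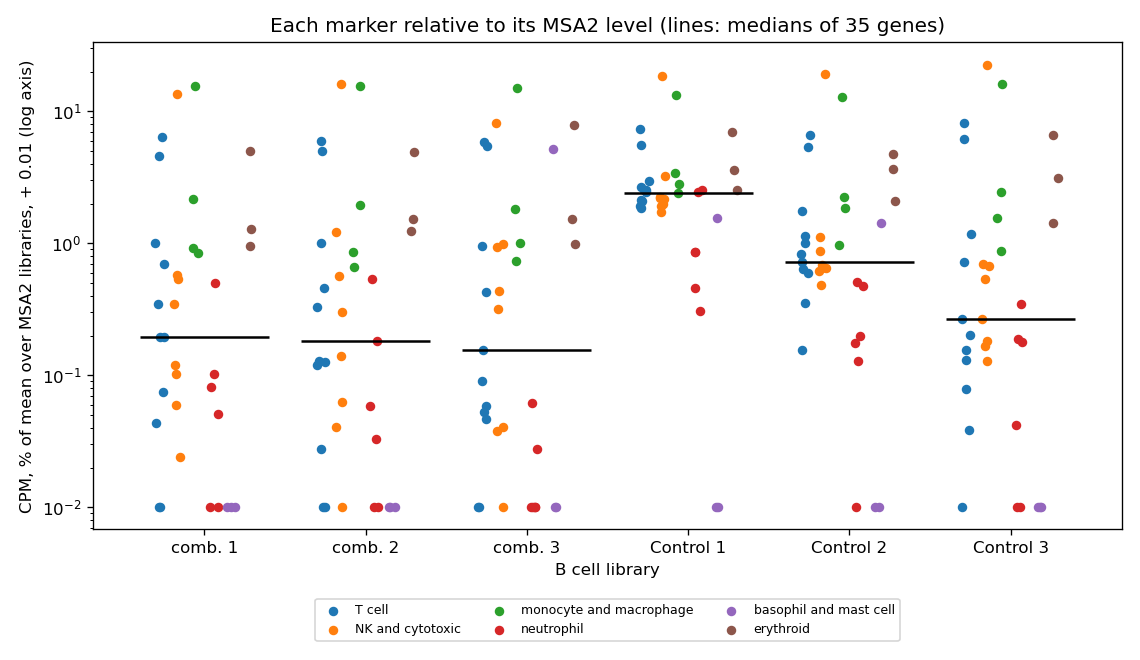
CPM of each of the 35 marker genes in the combination and Control libraries of B cells, as a percentage of the gene's mean over the MSA2 libraries, + 0.01 (log axis), coloured by lineage, with a line at the median. The median line is highest in Control replicate 1, at 2.38%, and lies at 0.185% in combination replicate 1.

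A share of RNA from B cells was estimated from 15 B cell marker genes, such as Cd79a and Pax5, as the median of their CPM relative to the Control mean. Control thus lies near 100% by construction, which does not measure its purity. This share was 99.9, 97.4 and 99.3% in the combination, 53.4, 58.4 and 54.3% with MSA2 and 97.6, 99.7 and 104% in Control, or 98.8 ± 1.31%, 55.4 ± 2.67% and 100.4 ± 3.09% (SD, n = 3 each). All 15 markers were lower in every MSA2 library than in every other B cell library, a pattern that 8.93% of all genes tested had. Their levels did not share 1 factor: in MSA2 replicate 2 they ran from 39.4% for Vpreb3, a surrogate light chain partner, to 78.4% for Cr2, the complement receptor CD21. If Control held B cell RNA only and MSA2 left the level of these genes per B cell as it was, the remainder would come from other cells. This remainder would be 46.6, 41.6 and 45.7% of the RNA in the 3 MSA2 libraries. A direct effect of MSA2 on B cell genes and dilution by other RNA cannot be told apart from these values. The combination, which holds IPI-549 besides MSA2 and has earlier library numbers, stood at 98.8%. The source of its difference from MSA2 alone was not tested. A further estimate assumes B cell genes unchanged by MSA2, and marker reads from other cells only, mixed as in the MSA2 libraries. Scaling the median level of the 35 markers by the mean remainder of 44.6% then gives 0.0825, 0.0763 and 0.0655% of RNA from other cells in the combination libraries and 1.06, 0.318 and 0.115% in the Control libraries. These assumptions were not tested. They would put all markers of a library at 1 percentage of the MSA2 mean, which the values did not show. In Control replicate 3 the median level was 0.1003% of the MSA2 mean for neutrophil genes, 0.193% for T cell genes and 3.12% for erythroid genes. The combination means of Adgre1 and Prf1 were 15.4 and 12.6% of their MSA2 means. With the combination as the base, with TMM-scaled CPM or with 5 markers alone, the mean share with MSA2 was 58.2, 52.0 and 51.8%.

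**Figure D4:**
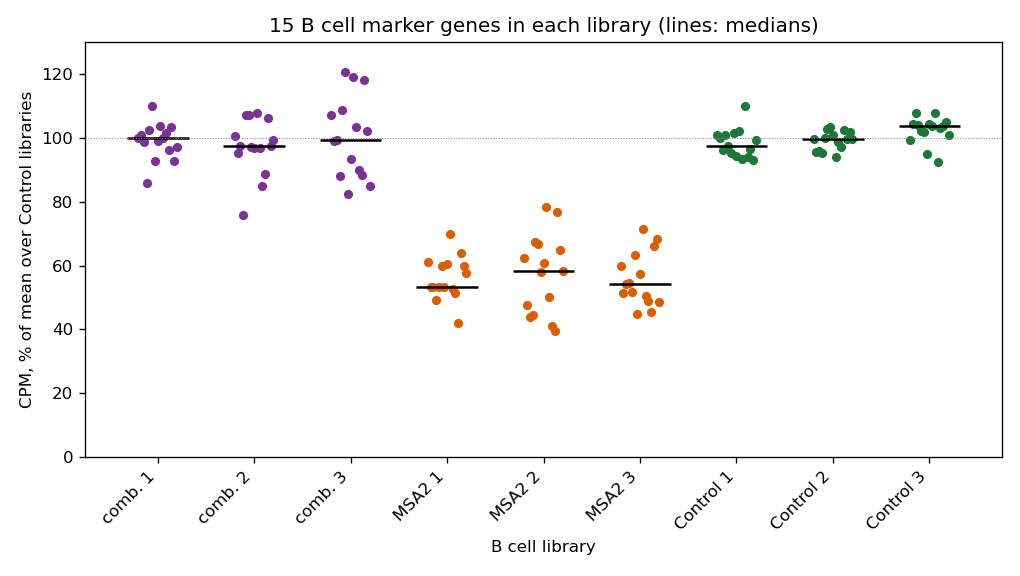
CPM of 15 B cell marker genes in each B cell library as a percentage of the Control mean, with a line at the median of each library (comb. is MSA2 plus IPI-549). The MSA2 medians lie at 53.4, 58.4 and 54.3%, and the combination and Control medians between 97.4 and 104%.

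A second view took the 43347 genes under 1 CPM in each Control library, 13 of which belong to the 35. They summed to 1729, 1739 and 1594 CPM in the combination, 7189.8, 8634 and 7097 CPM with MSA2 and 1759, 1632 and 1477 CPM in Control. The Control sums are low by the choice of these genes. The 13 genes alone gave 0.826, 0.947 and 1.21 CPM in the combination, 225, 231 and 207 CPM with MSA2 and 4.18, 1.54 and 0.953 CPM in Control. Genes that a drug induces in B cells and genes of other cells both enter these sums.

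Wider lists of the same lineages behaved likewise. They too were chosen with earlier results of these data known, so nothing is read from their comparison with all genes. Each MSA2 library was above every combination and Control library for 17 of 18 further T cell genes, 10 of 10 NK genes, 16 of 16 monocyte and macrophage genes, 11 of 11 neutrophil genes, 7 of 8 basophil and mast cell genes and 9 of 9 erythroid genes, against 28.2% of all genes. The median ratio of the MSA2 to the Control mean was 68.5 for T cells, 36.1 for NK cells, 52.2 for monocytes and macrophages and 22.9 for red cell precursors. It was 163 for neutrophils, without Elane, and 53.9 for basophils and mast cells, without Tpsb2, both of which had 0 Control counts. The exceptions were Cd2, which mouse B cells make themselves and which stood at 302, 289 and 268 CPM in the combination, 308, 245 and 266 CPM with MSA2 and 331, 345 and 339 CPM in Control, and Tpsb2, with 0 counts throughout. The most abundant further genes with MSA2 were Tcf7, a T cell transcription factor (270.4 to 336 CPM), Il2rb and Txk of the NK list (217 to 261 and 33.3 to 52.2 CPM), Apoe and Vcam1 of the macrophage list (421 to 487 and 204 to 283 CPM), the neutrophil granule gene Ngp (298 to 342 CPM), Csf3r (91.9 to 165 CPM) and the beta globin gene Hbb-bs (458 to 511 CPM). Hdc, the enzyme that makes histamine, and the growth factor receptor gene Kit led the mast cell list, at 74.9 to 152 and 13.1 to 21.2 CPM.

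Lists of other cell types were mixed. Of all genes tested, 28.2% were higher in every MSA2 library than in every other B cell library, and 8.93% were lower. The lists are short, so their counts are given as description beside these shares. The 6 megakaryocyte and platelet genes, led by Itga2b (9.03 to 11.2 CPM with MSA2) and Ppbp (7.95 to 11.05 CPM), overlapped between the groups in 6 of 6 cases, with list sums of 17.2 to 27.3 CPM in the combination, 22.6 to 28.2 CPM with MSA2 and 16.3 to 27.5 CPM in Control. Stromal and endothelial genes were scarce, summing to 3.54 to 4.98, 6.39 to 9.69 and 4.04 to 4.39 CPM in the combination, MSA2 and Control, with 6 of 10 higher in every MSA2 library, led by Kdr (0.881 to 2.21 CPM) and Cdh5 (1.29 to 1.51 CPM), and with the MSA2 mean of Dcn below that of Control. Epithelial genes summed to 6.12 to 7.62, 7.25 to 9.24 and 6.28 to 7.36 CPM in the combination, MSA2 and Control, of which Epcam held 6.498 to 8.11 CPM with MSA2. The keratin genes Krt18 and Krt8, 2 of the 6, were above every other library, at 0.535 to 0.813 and 0.135 to 0.294 CPM with MSA2, against 0 to 0.0443 and 0 to 0.0778 CPM in Control. The pancreatic genes Cpa1 and Cela2a had reads in Control replicate 1 alone. Siglech, a marker of plasmacytoid dendritic cells, was at 0.0212, 0.113 and 0.146 CPM in the combination, 9.68, 12.02 and 10.96 CPM with MSA2 and 0.156, 0.0434 and 0.133 CPM in Control, and 6 of 8 dendritic cell genes were above both other groups, Flt3 and Zbtb46 being the exceptions. The list was led by Itgax (54.8 to 70.5 CPM with MSA2) and Flt3 (20.99 to 27.7 CPM). In the plasma cell list 4 of 7 genes were above every other library with MSA2 and 2 were below. Jchain, the joining chain of secreted antibody, was at 232, 232 and 159 CPM in the combination, 1446, 1222 and 1537 CPM with MSA2 and 247, 271 and 335 CPM in Control. Mzb1, an endoplasmic reticulum chaperone of antibody-secreting and other B cells, was lower in every MSA2 library, at 121 to 148 CPM, against 149 to 166 CPM in the combination and 170.3 to 179 CPM in Control. Xbp1, Prdm1 and Tnfrsf17 were above, at 161 to 183, 25.01 to 35.2 and 2.62 to 3.52 CPM with MSA2, against 93.8 to 98.3, 11.4 to 14.9 and 0.0778 to 0.333 CPM in Control. Irf4 was also lower (441 to 700.3 CPM with MSA2), and Sdc1, the plasma cell surface protein CD138, overlapped between the groups.

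BMDC provide a level of the myeloid genes in myeloid cells. The table was made separately from that of B cells, so levels set across them are descriptive. BMDC carried the dendritic and myeloid gene Itgax at 1424 to 1492 CPM in the combination, 1244 to 1396 CPM with MSA2 and 1695 to 1884 CPM in Control, and the B cell gene Cd79a did not exceed 0.2302 CPM in any library, while the dendritic growth factor receptor gene Flt3 was at most 1.08 CPM. Of the 35 markers, 19 were under 1 CPM in every BMDC library, among them 8 of 11 T cell, 7 of 8 NK and 3 of 3 erythroid genes. The 4 monocyte and macrophage genes were high instead. B cell MSA2 means were 13.8% (Ccr2), 25.9% (Csf1r), 5.23% (Lyz2) and 21.8% (Adgre1) of the BMDC Control means. For S100a9 the B cell MSA2 mean was 829% of the BMDC Control mean, and for Ltf 2314%. Without BMDC Control replicate 2, the highest of the 3 for both genes, these were 1275% and 3879.7%.

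Neutrophil genes were present in BMDC at uneven levels, with sums of 146 and 223 CPM in the combination, 292, 209 and 306 CPM with MSA2 and 138, 280.2 and 85.5 CPM in Control. The Control libraries alone covered most of that range, and the 3 groups overlapped. The S100a9 to S100a8 count ratio was 0.826 to 0.986 over the 8 BMDC libraries, below the 1.68 to 2.09 of the B cell MSA2 libraries, and the Ltf to Cd177 ratio was 1.83 to 2.56 in BMDC and 5.22 to 6.37 in the B cell MSA2 libraries. Basophil and mast cell genes summed to 3.29 and 6.11 CPM in the combination, 7.97, 3.12 and 5.998 CPM with MSA2 and 4.83, 7.5 and 2.13 CPM in Control, below the 8.02 to 9.56 CPM of the B cell MSA2 libraries. By gene, B cell MSA2 means were 354% (Prss34), 224% (Mcpt8) and 67.0% (Cpa3) of the BMDC Control means, so Cpa3 went the other way.

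The BMDC libraries were not used to choose the genes, and in them the question was whether the drugs moved the markers of myeloid and other cells. With MSA2, Csf1r, Lat and Cd4 fell and Cd8a rose, by the quasi-likelihood test of edgeR, adjusted after Benjamini-Hochberg over 14613 genes. Csf1r was at 737 and 765 CPM in the combination, 689, 664 and 717 CPM with MSA2 and 957, 882 and 905 CPM in Control. With MSA2 it averaged 690.0 ± 26.4 CPM against 915 ± 38.6 CPM in Control (SD, n = 3 each). On the log2 scale that difference was -0.38 ± 0.06 SE, adjusted p = 0.000933 (edgeR). Lat was at 4.59 and 5.25 CPM in the combination, 3.26, 4.1 and 3.78 CPM with MSA2 and 5.84, 6.37 and 5.24 CPM in Control, and MSA2 against Control gave -0.61 ± 0.13 SE, adjusted p = 0.00527 on the log2 scale (edgeR). Cd4, which some myeloid cells make, was at 0.627 and 0.6595 CPM in the combination, 0.784, 0.765 and 0.647 CPM with MSA2 and 1.697, 1.01 and 1.35 CPM in Control (-0.84 ± 0.25 SE, adjusted p = 0.0286, edgeR, MSA2 against Control). Cd8a rested on few reads, with 9 and 8 counts in the combination, 21, 28 and 8 with MSA2 and 2, 5 and 6 in Control (1.72 ± 0.51 SE, adjusted p = 0.0278, edgeR, MSA2 against Control). It passed the low-count filter only through the MSA2 libraries, where it was high. Its p-value is therefore not taken as support for a rise. For all 4 genes the MSA2 and Control libraries did not overlap. The genes were picked by the test on these same libraries, so the gap adds nothing to it.

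Among all 14613 genes, 28.2% were called with MSA2 against Control (14.6% higher and 13.5% lower). Of the 18 markers that passed the BMDC low-count filter, 4 were called, counting Cd8a. The other 14 were not called, among them Lyz2 (-0.28 ± 0.10 SE, adjusted p = 0.0536, edgeR), Ccr2 (-0.10 ± 0.08 SE, adjusted p = 0.441, edgeR), S100a8 (0.69 ± 0.30 SE, adjusted p = 0.117, edgeR) and S100a9 (0.80 ± 0.35 SE, adjusted p = 0.111, edgeR). In the combination against Control, 2 of 18 were called, both lower, with 12.9% of all genes called (7.51% higher and 5.38% lower). Csf1r fell (-0.26 ± 0.07 SE, adjusted p = 0.0316, edgeR), at 751 ± 20.1 CPM (SD, n = 2) against 915 ± 38.6 CPM (SD, n = 3), and so did Cd4 (-1.04 ± 0.30 SE, adjusted p = 0.0434, edgeR). Between the combination and MSA2, 0 of 18 passed, the lowest adjusted p being 0.377 for Lat (0.39 ± 0.15 SE, edgeR), and 0.00% of all genes were called. Of all genes 1595 had an unadjusted p under 0.05 there, and DESeq2 called 139.

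The calls of Csf1r and Lat with MSA2 held in each of 13 alternatives, whose adjusted p by edgeR or DESeq2 ran from 2.79e-07 to 0.00714 for Csf1r and from 0.000528 to 0.0245 for Lat. Cd4 with MSA2 lost its call (edgeR adjusted p) without MSA2 replicate 2 (0.0589), MSA2 replicate 3 (0.0875), Control replicate 1 (0.126) or Control replicate 3 (0.0635), and by DESeq2 (0.0593). Cd8a lost it without Control replicate 1 (0.101) or 2 (0.0797) and by DESeq2 (0.0631). It was not tested under the stricter filter or without MSA2 replicate 1 or 2, where it was filtered out, so it has 10 alternatives. In the combination, Csf1r lost it (edgeR adjusted p) without combination replicate 1 (0.213) or 2 (0.126) and without Control replicate 1 (0.122) or 3 (0.0720). Cd4 in the combination lost it in 8 of 13 alternatives, with edgeR adjusted p from 0.0503 without MSA2 replicate 2 to 0.204 without combination replicate 1. The others were without combination replicate 2 (0.174), MSA2 replicate 3 (0.0575), Control replicate 1 (0.141) or 3 (0.0830), DESeq2 (0.0624) and the title suffix as a block (0.0870).

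**Figure D5:**
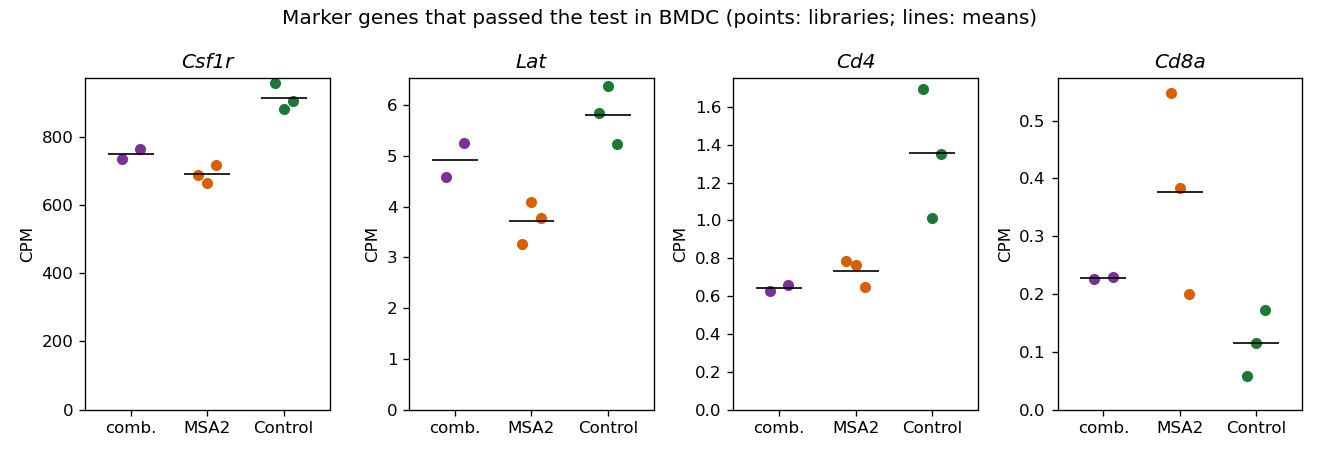
CPM of the 4 marker genes that passed the test in BMDC (axes from 0), with 1 point per library and a line at the group mean for the combination (comb., MSA2 plus IPI-549), MSA2 and Control. Csf1r, Lat and Cd4 lie lower with MSA2 than in Control, and Cd8a lies higher at under 0.6 CPM.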

How the data were processed

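RNA-seq tables of 9 B cell and 8 BMDC libraries were used. The authors deposited expected counts per gene as whole numbers, a unit taken from the table name per the labels. Per the submitters' processing notes the tools were cutadapt 4.8, STAR 2.7.8a, RSEM 1.3.3, FastQC 0.11.8 and MultiQC 1.20, on GRCm38. The annotation release and strand are not given in the sources used here. Titles gave the groups, because every one of the 17 treatment labels says Control.

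CPM divides counts by the library total, without 4 rows that name no mouse gene, which hold 0.0046 to 0.0107% of that total. Gene positions and exon lengths are those of GENCODE M21 (GRCm38). For each table, edgeR 4.0.16 under R 4.3.3 fitted all 3 groups together, with TMM factors, the default low-count filter, the quasi-likelihood F test and Benjamini-Hochberg adjustment, called under 0.05. The fit was tested on simulated data. Members and lists were chosen with earlier results of these data known. Values per library are given for the 2 to 4 most abundant members of each lineage with MSA2, for the 3 called BMDC members with the largest change, and for the 2 most abundant genes of each wider list with those below their Control mean. Csf1r in BMDC and any other gene given with values were picked once their values were known. The alternatives tried were RLE factors, no filter, 1 CPM in 3 libraries, DESeq2 1.42.0, a block for the title suffix, and omission of single libraries. Floors of 3 counts cover counting error only, while SDs and standard errors include the spread between libraries. Deviations of same-suffix B cell libraries of the combination and MSA2 had correlations of 0.48, 0.39 and 0.62. Those of other-suffix libraries of these groups ran from -0.61 to 0.37. The labels do not say what the suffix marks, so the main fit used no pairing and the block served as an alternative only. The replicate pairs with a chi-square value differed beyond sampling noise (at least 12.9 per degree of freedom). In B cells these were pairs of MSA2 libraries only.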

Additional observations from a re-analysis of the deposited data

Results flagged for a closer look

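In 5 markers the MSA2 and Control libraries lay apart in both cell types but in opposite order, each MSA2 library being above each Control library in B cells and below each in BMDC. Of the 13575 genes tested in both tables, 9.68% had this order, and the markers, 18 of which were tested in BMDC, were chosen to be higher with MSA2 in B cells. The log2 fold changes of MSA2 against Control in BMDC were -0.61 for Lat, -0.84 for Cd4, -0.38 for Cd28, -0.38 for Csf1r and -0.19 for Adgre1. Lat, Cd4 and Csf1r passed edgeR's test in BMDC, whereas Cd28 (adjusted p = 0.109, edgeR) and Adgre1 (adjusted p = 0.0648, edgeR) did not. The difference between the cell types was not tested.

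Both tables hold a row for the green fluorescent protein eGFP, which no comparison uses. Its counts were 2802 to 5127 in the 9 B cell libraries and 2042 to 3391 in the 8 BMDC libraries, above the limit a count of 0 allows in every one. This corresponds to 67.2 to 107 CPM in B cells and 46.3 to 63.5 CPM in BMDC. The labels name no such transgene.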

How the results depend on the processing

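The number of genes called for the combination against Control in B cells, 171, was 359 without a filter, 376 by DESeq2 and 260 under a replicate block on the suffix. It ran from 91 (without Control replicate 2) to 220 when a library was left out, and was 112 without combination replicate 1. In BMDC the combination against MSA2 gave 561 calls without a filter and 139 by DESeq2, and 0 to 99 (without MSA2 replicate 2) with a library left out, where 0 were called before. The combination against Control in BMDC gave 1883 calls, and 843 (without combination replicate 1) to 2177 with a library left out, and 1036 without combination replicate 2. A lone combination library is assumed to vary like the other groups. The combination against Control gave 1503 calls with the replicate block, and MSA2 against Control gave 4118 calls, or 3769 with the block. The B cell counts for MSA2 against Control (7014) and the combination against MSA2 (5983) were within 1.5 times of these in all alternatives. The block gave 6398 calls for the combination against MSA2 in B cells. Deviations of same-suffix pairs with Control in B cells had correlations of -0.04 to 0.15, and those in BMDC of -0.18 to 0.17. The main fit took the suffix as a pairing in neither cell type. With the block Cd4 and Cd8a with MSA2 in BMDC had adjusted p = 0.0545 and 0.0597, and Cd4 and Csf1r in the combination 0.0870 and 0.0726 (edgeR). No call reversed its direction. The share of B cell RNA with MSA2 relative to Control, 55.4%, was 58.2% with the combination as base, 52.0% with TMM scaling and 51.8% from 5 markers. Without the most abundant member, the mean sums with MSA2 were 887 CPM for T cells, 260.4 for NK, 382 for monocytes, 581 for neutrophils, 4.11 for basophils and mast cells and 52.6 for erythroid cells, and TMM scaling put the neutrophil sum at 1119.9. Genes under 0.5 CPM in Control summed to 4513 CPM with MSA2. Depth limits the basophil and mast cell genes, which held at most 4 counts in any combination or Control library.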
